A study of Homo sapiens with 12 samples.

Results

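The unfolded protein response set comprised 38 human genes of the endoplasmic reticulum (ER) stress pathway, found by gene symbol among the 60624 gene rows of the deposited count tables. They were sorted by known role into 5 sensors and transducers, 11 chaperones, 6 enzymes of disulfide bond formation, 9 genes of ER-associated degradation and 7 genes of the ATF4 branch. Transcripts were measured by bulk RNA-seq of total RNA in 12 libraries of islet-like cells. The groups were NKX2-2 knockout (KO) with its own wild type (WT), and CLEC16A KO with its own WT, with 3 libraries in each. NKX2-2 is a homeodomain transcription factor of islet cells, and CLEC16A is a regulator of mitophagy. All cells, KO and WT alike, came from the human embryonic stem cell line MEL1 by way of expandable pancreatic progenitors (ePPs), which were kept on feeder cells. They were collected on day 8 in a medium named R6. That medium, shared by all groups, was DMEM with B27, BSA, zinc sulfate, heparin, 616452, T3, LDN-193189, Compound E, vitamin C and forskolin. No clone is named in the labels, so an effect of the knockout and a difference between lines cannot be told apart. The labels do not say whether replicates are separate cultures, and p-values therefore cover only library-to-library spread, which could be technical.

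The unfolded protein response adjusts the folding capacity of the ER to its load. Of its 3 sensors in the ER membrane, IRE1 (gene ERN1) splices the XBP1 mRNA, PERK (EIF2AK3) phosphorylates the initiation factor eIF2 so that the transcription factor ATF4 is translated, and ATF6 is cleaved to release a transcription factor. XBP1 and ATF6 are known to raise chaperones, disulfide enzymes and the degradation machinery, and ATF4 raises genes of amino acid supply, redox balance and cell death. Insulin-producing cells fold large amounts of proinsulin, whose disulfide bonds are made in the ER. Gene-level counts hold no information on XBP1 splicing, eIF2 phosphorylation or ATF6 cleavage.

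Promoter sequences are shown for 5 members with a match to an ER stress element and differing transcript changes, picked after their values were seen. HERPUD1 and HSPA5 rose in CLEC16A KO, HYOU1 and CRELD2 were called in opposite directions in both experiments, and ERO1B fell in both. RefSeq windows of 300 bases (250 before to 50 after the annotated start, GRCh38.p14) were found for 35 of the 38 members. They were searched on both strands for the ER stress response element ERSE (CCAAT and CCACG with 9 bases of any kind between), ERSE-II (ATTGG and CCACG with 1 base between), the XBP1 element UPRE (TGACGTGG), the ATF4 element CARE (TGATGNAAT) and the cAMP element CRE (TGACGTCA). ERSE stood in the windows of 8 members, HSPA5, HSP90B1, CALR, CANX, CRELD2, PDIA6, ERO1B and XBP1, against 0.0916% of the 27305 genes with windows, members included. ERSE-II stood in 3 members, HERPUD1, HYOU1 and SDF2L1, against 0.0696% of genes. The HYOU1 window also held a UPRE, found in 0.927% of genes, which overlaps an ERSE-II match. CRE stood in 1 member, PPP1R15A, against 2.25% of genes. CARE, searched only in the form ending in T, stood in 0 members, against 1.22%. The HERPUD1 window holds gttgcatca, which on the other strand differs from that form in its last base only. Such variants of an element were not counted. A match describes these letters only, and a window without one says nothing about binding. The windows lie at chr9:125241294-125241593 on the minus strand for HSPA5, chr16:56931892-56932191 on the plus strand for HERPUD1 and chr11:119057156-119057455 on the minus strand for HYOU1. Those of CRELD2 and ERO1B lie at chr22:49918384-49918683 on the plus strand and chr1:236281909-236282208 on the minus strand. Capitals mark ERSE in HSPA5, CRELD2 and ERO1B, ERSE-II in HERPUD1, and ERSE-II with the overlapping UPRE in HYOU1, in either orientation.
HSPA5: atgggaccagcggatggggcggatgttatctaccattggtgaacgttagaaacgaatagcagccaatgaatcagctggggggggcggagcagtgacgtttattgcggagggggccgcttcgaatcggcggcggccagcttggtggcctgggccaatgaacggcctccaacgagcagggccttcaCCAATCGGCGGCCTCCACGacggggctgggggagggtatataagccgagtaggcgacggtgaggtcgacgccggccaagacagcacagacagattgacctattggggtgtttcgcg
HERPUD1: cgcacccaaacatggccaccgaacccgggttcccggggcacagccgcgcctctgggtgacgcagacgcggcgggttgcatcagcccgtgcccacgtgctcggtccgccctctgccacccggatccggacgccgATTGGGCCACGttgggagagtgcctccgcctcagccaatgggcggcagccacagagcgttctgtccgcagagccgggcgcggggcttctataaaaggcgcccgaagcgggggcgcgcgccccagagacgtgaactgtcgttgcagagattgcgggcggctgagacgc
HYOU1: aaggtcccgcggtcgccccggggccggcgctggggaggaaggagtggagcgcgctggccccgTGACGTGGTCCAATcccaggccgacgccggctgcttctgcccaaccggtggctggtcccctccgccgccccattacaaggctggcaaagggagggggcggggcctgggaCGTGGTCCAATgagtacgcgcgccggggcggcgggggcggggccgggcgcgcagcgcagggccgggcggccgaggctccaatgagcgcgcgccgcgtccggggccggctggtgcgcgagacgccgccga
CRELD2: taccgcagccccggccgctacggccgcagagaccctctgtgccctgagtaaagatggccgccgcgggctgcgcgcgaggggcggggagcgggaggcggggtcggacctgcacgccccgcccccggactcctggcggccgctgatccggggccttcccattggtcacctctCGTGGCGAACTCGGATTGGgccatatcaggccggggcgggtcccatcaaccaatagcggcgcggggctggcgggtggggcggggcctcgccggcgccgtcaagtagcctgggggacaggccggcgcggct
ERO1B: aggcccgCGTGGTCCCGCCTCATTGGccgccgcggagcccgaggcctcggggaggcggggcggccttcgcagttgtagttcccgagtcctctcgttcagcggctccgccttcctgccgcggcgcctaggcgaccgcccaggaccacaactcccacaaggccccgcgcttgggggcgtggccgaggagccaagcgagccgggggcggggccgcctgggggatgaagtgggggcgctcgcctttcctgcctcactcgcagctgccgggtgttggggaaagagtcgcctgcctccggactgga
The ERSE of HSPA5, at bases -66 to -48 from the start, is read on the gene's strand, while that of CRELD2 (-80 to -62) and that of ERO1B (-243 to -225) are read on the other strand. In CLEC16A KO, 5 of the 8 members with ERSE rose, 2 fell (CRELD2 and ERO1B) and 1 was not called, where 23.7% of all tested genes were higher and 21.3% lower at the threshold given below. In NKX2-2 KO, 1 rose (CRELD2), 1 fell (ERO1B) and 6 were not called, where 16.6% of all tested genes were higher and 16.8% lower. The 2 that fell and the counts in NKX2-2 KO are near those shares.

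Depth was 16157481 to 20649976 counts per library in the NKX2-2 experiment and 31364272 to 33763795 in that of CLEC16A. Levels below are CPM, counts scaled to library size after edgeR's trimmed mean (TMM) adjustment, and levels between genes are compared in deposited TPM, which accounts for transcript length. The sample titles abbreviate the targeted genes, whose full names come from the deposited tables, and CLEC16A transcripts were not lower in its KO. NKX2-2 held 91.92, 68.03 and 68.31 CPM in libraries labelled NKX2-2 KO, against 95.44, 96.65 and 93.41 CPM in their WT (log2 fold change -0.32, SE 0.12, edgeR adjusted p = 0.061). In TPM it was called lower, at 44.65, 30.61 and 28.55 TPM in KO, against 60.78, 56.92 and 54.5 TPM in WT (limma on log2(TPM + 1), log2 fold change -0.74, adjusted p = 0.00558), and KO lay wholly below WT in both units. CLEC16A held 35.36, 38.04 and 36.82 CPM in libraries labelled CLEC16A KO, against 36.19, 30.08 and 30.76 CPM in their WT (log2 fold change 0.18, SE 0.09, edgeR adjusted p = 0.0949). NKX2-2 itself was lower in CLEC16A KO than in its WT (log2 fold change -0.93, SE 0.07, edgeR adjusted p = 3.53e-10). Mitochondrial DNA genes of the NKX2-2 experiment took 9.13% to 10.2% of counts in KO and 7.05% to 8.02% in WT libraries.

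Most of the set rose in CLEC16A KO, whereas in NKX2-2 KO most of it was not called and more members fell than rose. A gene was called at an adjusted p under 0.05 (edgeR quasi-likelihood test, Benjamini-Hochberg adjustment over all genes tested). In NKX2-2 KO against its WT, 2 of 37 tested members rose, 9 fell and 26 were not called, where 16.6% of all 17436 tested genes were higher and 16.8% lower (33.4% in either direction). Their median log2 fold change was -0.02, against 0.03 over all tested genes. In CLEC16A KO against its WT, 26 of 38 members rose, 3 fell and 9 were not called, where 23.7% of 19958 tested genes were higher and 21.3% lower (45.0% in either direction). Here the median was 0.38, against -0.01 over all tested genes. Summed over the set, NKX2-2 KO libraries held 8957 to 9383 CPM, against 9774 to 10180 CPM in their WT. CLEC16A KO libraries held 10530 to 11440 CPM, against 8335 to 8611 CPM in their WT, so neither experiment's groups overlapped. Member by member, KO and WT did not overlap in 17 of 37 genes of the NKX2-2 experiment, 3 with KO higher (23.1% of all tested genes) and 14 with KO lower (22.5%), and in 31 of 38 of the CLEC16A experiment, 29 with KO higher (27.4%) and 2 with KO lower (26.4%). Replicate 3 of CLEC16A KO and replicate 2 of its WT were each the highest library of their group in 22 of 38 members, and replicate 3 of NKX2-2 WT was in 22 of 37.

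Markers of cell types moved with these groups, and in bulk RNA fewer cells of a type and less RNA per cell cannot be told apart. The 8 endocrine markers summed to 995.3 to 1067 CPM in NKX2-2 KO, against 2689 to 3222 CPM in its WT (2 higher, 4 lower). In the CLEC16A experiment they summed to 13980 to 16270 CPM in KO, against 26990 to 29870 CPM in WT (0 higher, 8 lower). By mean TPM, CHGA, a granin of secretory granules, led the 8 in NKX2-2 KO (1649 TPM), followed by INS (1366 TPM). NEUROD1, a transcription factor, had the highest mean CPM there (289.3 CPM), but a mean of 76.3 TPM. CHGA held most of the CPM sum in the CLEC16A experiment, with a mean of 14390 CPM in KO and 25230 CPM in WT. Its counts are uncertain, since it held 480 CPM at 4215 TPM in NKX2-2 WT, but 25230 CPM at 26470 TPM in CLEC16A WT. GCG held 1312 CPM at 883.4 TPM and 1920 CPM at 3484 TPM in those groups. The endocrine CPM sums are therefore not comparable between the experiments. None of the 8 was at 0 in any group, but the islet-like label was not borne out alike. Per transcript length, the endocrine sum lay under the liver sum in NKX2-2 KO (3039 to 3538 against 5586 to 6426 TPM) and above it in its WT (8074 to 10000 against 5525 to 6482 TPM). In the CLEC16A experiment both sums overlapped in KO (17910 to 21240 against 18180 to 20230 TPM), and the endocrine sum was above in WT (46840 to 53560 against 9425 to 9636 TPM). The 7 mesenchyme markers summed to 4818 to 5350 CPM in NKX2-2 KO, against 1817 to 2034 CPM in its WT (7 higher, 0 lower), and to 167.6 to 200.4 CPM in CLEC16A KO, against 264.6 to 304.3 CPM in its WT (0 higher, 5 lower). Liver markers (7) and intestine and goblet markers (8) rose in CLEC16A KO. The liver sum was 16270 to 17920 CPM in CLEC16A KO, against 6354 to 6655 CPM in its WT (5 higher, 0 lower). The intestine and goblet sum was 5644 to 6357 CPM in CLEC16A KO, against 1447 to 1627 CPM in its WT (8 higher, 0 lower). In the NKX2-2 experiment the liver sum was 9942 to 12270 CPM in KO, against 9818 to 11420 CPM in WT (2 higher, 2 lower of 7), and the intestine and goblet sum was 2618 to 2889 CPM in KO, against 3433 to 3634 CPM in WT (2 higher, 4 lower of 7 tested). The 8 acinar markers, of a cell type with much ER, summed to 114.7 to 131.1 CPM in NKX2-2 KO, against 42.87 to 51.25 CPM in its WT. CELA3A and PNLIP were at 0 counts (3 of 4 tested higher). CELA3A nonetheless held 3.46, 3.21 and 3.24 TPM in NKX2-2 KO, against 1.97, 2.3 and 2.26 TPM in WT. PRSS1 held 0, 3 and 4 counts at 5.75, 6.85 and 8.5 TPM in NKX2-2 KO, so the counts of both are uncertain. The acinar markers summed to 130.9 to 138.7 CPM in CLEC16A KO, against 80.6 to 91.8 CPM in its WT, with PNLIP at 0 (3 higher and 1 lower of 5 tested). The part of these cell types in the results below was not tested.

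**Figure D1:**
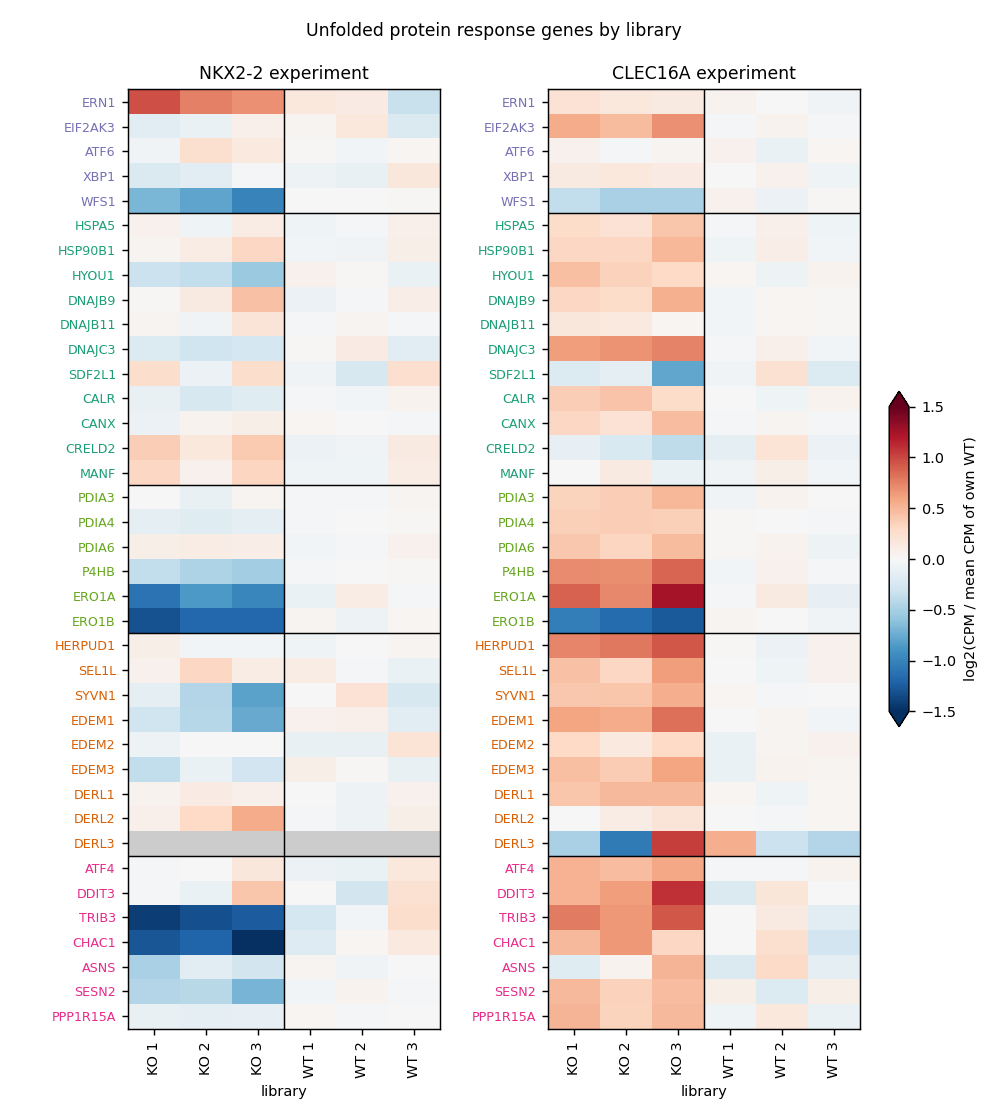
Each of the 38 genes (down the page, coloured by role) in each library (across, KO left of WT), as the log2 ratio of its CPM to the mean CPM of its own WT group, with red above and blue below that mean and grey where a gene is at 0 counts. The CLEC16A KO columns are red for most genes outside ERO1B, WFS1, CRELD2 and SDF2L1, while the NKX2-2 KO columns are blue for TRIB3, CHAC1, ERO1A, ERO1B and WFS1 and red for ERN1.

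The sensors and transducers showed 1 member higher and 1 lower of 5 in each experiment, but with different higher members. Those counts are near the shares over all tested genes, 16.6% higher and 16.8% lower in NKX2-2 KO and 23.7% and 21.3% in CLEC16A KO. The same shares apply to each branch count below. ERN1, the gene of IRE1 (chromosome 17, 64039142 to 64130819, minus strand, GRCh38), held 37.26, 32.17 and 30.58 CPM in NKX2-2 KO, against 21.24, 20.78 and 15.07 CPM in its WT. All 3 KO libraries lay above all 3 WT libraries, a 1.75-fold rise (log2 fold change 0.81, SE 0.15, edgeR adjusted p = 8.42e-04). In CLEC16A KO it held 33.71, 32.33 and 31.88 CPM, against 30.06, 28.85 and 27.88 CPM in WT, which was not called (log2 fold change 0.17, SE 0.08, edgeR adjusted p = 0.0949). The ERN1 effect was larger in NKX2-2 KO than in CLEC16A KO by 0.64 on the log2 scale (SE 0.16, edgeR interaction adjusted p = 0.00331). EIF2AK3, the gene of PERK, went the other way. It held 43.08, 40.93 and 47.38 CPM in CLEC16A KO, against 28.97, 30.51 and 28.73 CPM in WT, a 1.49-fold rise (edgeR adjusted p = 4.77e-06). In NKX2-2 KO it held 30.52, 31.67 and 35.83 CPM, against 34.84, 37.81 and 29.35 CPM in WT, and the groups overlapped. Its effect was lower in NKX2-2 KO by -0.62 (SE 0.15, edgeR interaction adjusted p = 0.00169). The antisense gene with the largest overlap covers 14.4% of the EIF2AK3 exon bases, and the use of strand in counting is not given in the sources used here.

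WFS1, whose product wolframin resides in the ER membrane and is lost in Wolfram syndrome, fell in both experiments. It held 172, 159.2 and 138.2 CPM in NKX2-2 KO, against 275.8, 274.9 and 278.8 CPM in WT, a 1.77-fold fall (log2 fold change -0.82, SE 0.10, edgeR adjusted p = 5.12e-05). The CLEC16A KO libraries held 198.5, 183.7 and 183.3 CPM, against 268.1, 242.7 and 259.9 CPM in WT, a 1.36-fold fall (log2 fold change -0.45, SE 0.06, edgeR adjusted p = 4.37e-06). KO and WT did not overlap in either experiment. The fall was deeper in NKX2-2 KO by -0.37 (SE 0.12, edgeR interaction adjusted p = 0.0231), a call lost with upper-quartile scaling (adjusted p = 0.118) and, in edgeR fits, without NKX2-2 KO replicate 3 (adjusted p = 0.0674), CLEC16A KO replicate 1, at an adjusted p of 0.0686, or CLEC16A WT replicate 2 (adjusted p = 0.0619). The insulin gene INS, whose counts are uncertain where it overlaps the read-through gene INS-IGF2, was lower alongside, at 232.4, 227.6 and 283 CPM in NKX2-2 KO against 539.7, 574.5 and 827.1 CPM in WT, and at 174.6, 199.7 and 174.9 CPM in CLEC16A KO against 630.3, 691.9 and 548.6 CPM in WT. GCG, which encodes glucagon, also fell in both, with log2 fold changes of -4.43 in NKX2-2 KO and -2.86 in CLEC16A KO (edgeR adjusted p = 4.02e-09 and 4.46e-19). Of the same marker list, SST (somatostatin) and ISL1 rose in NKX2-2 KO, with log2 fold changes of 2.21 and 0.32 (edgeR adjusted p = 2.77e-07 and 0.0225), and fell in CLEC16A KO (-0.73 and -0.89). Those 2 genes were named after their values were seen. ATF6 and XBP1 were called in neither experiment. XBP1 transcripts, the substrate of IRE1, held 300.1 to 343.5 CPM in NKX2-2 KO, against 323.2 to 390.8 CPM in WT, and 359.1 to 368.4 CPM in CLEC16A KO, against 316.2 to 346.3 CPM in WT. The XBP1 groups overlapped in the NKX2-2 experiment and stood apart in the CLEC16A experiment, without passing the test there (log2 fold change 0.14, edgeR adjusted p = 0.0671).

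Of 11 chaperones, 7 were higher, 1 lower and 3 not called in CLEC16A KO, with a median log2 fold change of 0.33. In NKX2-2 KO, 1 was higher, 1 lower and 9 were not called, with a median of 0.06. HSPA5, the gene of BiP, the main ATP-driven chaperone of the ER and a repressor of all 3 sensors, held 1056, 1014 and 1165 CPM in CLEC16A KO, against 863.3, 915.5 and 834.1 CPM in WT. The KO libraries were all above the WT libraries, by 1.24-fold (log2 fold change 0.31, SE 0.07, edgeR adjusted p = 5.03e-04). In NKX2-2 KO, HSPA5 held 1057, 972.1 and 1099 CPM, against 971.9, 999.8 and 1069 CPM in WT, and the groups overlapped (log2 fold change 0.04, SE 0.11, edgeR adjusted p = 0.797). The ER paralog of the cytosolic chaperone of steroid receptors, HSP90B1, followed HSPA5, with a log2 fold change of 0.37 in CLEC16A KO (edgeR adjusted p = 8.77e-05) and 0.16 in NKX2-2 KO (edgeR adjusted p = 0.305). The calnexin cycle genes CALR and CANX, whose products hold newly made glycoproteins, had log2 fold changes of 0.36 and 0.33 in CLEC16A KO (edgeR adjusted p = 5.89e-05 and 2.62e-04). DNAJC3, a BiP cochaperone that also inhibits PERK and whose loss causes diabetes, had the largest change of the chaperones there. It held 108.5, 112.2 and 118.4 CPM in CLEC16A KO, against 68.8, 74.02 and 68.6 CPM in WT, a 1.60-fold rise (log2 fold change 0.68, SE 0.07, edgeR adjusted p = 1.53e-08). In NKX2-2 KO it held 70.01, 65.23 and 67.22 CPM, against 81.5, 87.95 and 71.85 CPM in WT. These groups did not overlap either, with KO lower, but the difference was not called (log2 fold change -0.25, SE 0.11, edgeR adjusted p = 0.0864). It was called in 4 of 18 alternatives, the edgeR fit without WT replicate 3 among them, and the adjusted p ran from 0.0151 to 0.301.

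HYOU1, which exchanges nucleotide on BiP, fell in NKX2-2 KO and rose in CLEC16A KO. It held 337, 324.6 and 286.9 CPM in NKX2-2 KO, against 441.2, 427.3 and 393.4 CPM in WT (log2 fold change -0.41, SE 0.11, edgeR adjusted p = 0.00917). Its levels were 398.5, 371.4 and 359.2 CPM in CLEC16A KO, against 296.5, 277 and 301.3 CPM in WT (log2 fold change 0.37, SE 0.06, edgeR adjusted p = 4.96e-05). KO and WT stood apart in both experiments, in opposite directions. CRELD2, an ER stress-inducible protein with EGF-like repeats, showed the reverse, with smaller changes. It held 95.17, 82.49 and 96.99 CPM in NKX2-2 KO, against 69.49, 70.97 and 80.71 CPM in WT (log2 fold change 0.31, SE 0.11, edgeR adjusted p = 0.0418). In CLEC16A KO it held 53.2, 49.56 and 44.65 CPM, against 52.8, 66.81 and 54.84 CPM in WT (log2 fold change -0.24, SE 0.09, edgeR adjusted p = 0.0323), and there the groups overlapped. The calls of CRELD2 ended when single libraries were left out. The CRELD2 call in NKX2-2 KO was lost in edgeR fits without KO replicate 1 (adjusted p = 0.0946), KO replicate 3 (adjusted p = 0.101), WT replicate 1 (adjusted p = 0.203) and, at an adjusted p of 0.187, without WT replicate 2, and over its 18 alternatives the adjusted p ran from 0.00208 to 0.203. In CLEC16A KO it was lost without KO replicate 2 (adjusted p = 0.068), KO replicate 3, at an adjusted p of 0.128, or WT replicate 2 (adjusted p = 0.225, with a log2 fold change of -0.14). The difference between both effects, 0.56 (SE 0.15, edgeR interaction adjusted p = 0.00501), was called in all 17 of its alternatives. MANF, a secreted survival factor for beta cells, DNAJB11 and SDF2L1, which act together as BiP cochaperones, were called in neither experiment. For MANF, the log2 fold change in NKX2-2 KO was 0.23 (edgeR adjusted p = 0.116). That rise was called in 2 of 18 alternatives, with adjusted p values between 0.0172 and 0.367. SDF2L1 ranged most, at 22.95 to 36.02 CPM in CLEC16A KO, against 34.19 to 46.08 CPM in WT, with an overlap. Its fall there was called in 4 of 18 alternatives (DESeq2, no filter on low counts, a replicate block and the edgeR fit without KO replicate 2), with adjusted p values between 9.21e-04 and 0.351.

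With limma on log2(TPM + 1), where unit, scaling, filter and test all differ from the count fit, 6 of the 26 rises in CLEC16A KO were not called. Besides CHAC1 and EDEM2, described with their branches, these were 4 members. HSPA5 had a log2 fold change of 0.18 (adjusted p = 0.104), DNAJB9 0.23 (adjusted p = 0.0532), HYOU1 0.18 (adjusted p = 0.0531) and ATF4 0.29 (adjusted p = 0.147). On that scale the median of all tested genes was -0.12. Of 37 tested members, 20 were higher and 3 lower, and of the 11 chaperones 4 were higher, with a median of 0.18.

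In disulfide bond formation, the oxidases ERO1A and ERO1B moved apart in CLEC16A KO and fell together in NKX2-2 KO. These enzymes reoxidise protein disulfide isomerase (P4HB) with molecular oxygen, and ERO1B is the form known for its abundance in insulin-producing cells. ERO1B (chromosome 1, 236215555 to 236281985, minus strand) held 124.2, 136.3 and 136.2 CPM in NKX2-2 KO, against 315.4, 292.4 and 314.5 CPM in WT, a 2.32-fold fall (log2 fold change -1.22, SE 0.10, edgeR adjusted p = 9.20e-07). The CLEC16A KO libraries held 176.4, 162.9 and 152.3 CPM, against 374.3, 366 and 349.5 CPM in WT, a 2.22-fold fall (log2 fold change -1.15, SE 0.07, edgeR adjusted p = 2.60e-12). Every KO library was well under every WT library in both experiments, and the effects differed by -0.06 (SE 0.12, edgeR interaction adjusted p = 0.738), an estimate whose SE leaves room for differences of either sign.

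ERO1A (chromosome 14, 52639916 to 52695900, minus strand), known to be induced by hypoxia and by the ATF4 target DDIT3, held 41.6, 49.57 and 45.64 CPM in NKX2-2 KO, against 84.24, 97.21 and 88.5 CPM in WT. That was a 1.97-fold fall (log2 fold change -0.98, SE 0.11, edgeR adjusted p = 1.70e-05). Its levels were 327.4, 293.6 and 420.8 CPM in CLEC16A KO, against 174.9, 194.7 and 163.3 CPM in WT (log2 fold change 0.97, SE 0.12, edgeR adjusted p = 1.05e-04). No KO library reached into the WT range in either experiment, and the effects differed by -1.94 (SE 0.16, edgeR interaction adjusted p = 2.27e-09). On the TPM scale, the ratio of ERO1A to ERO1B was 2.35, 2.27 and 3.37 in CLEC16A KO libraries, against 0.603, 0.671 and 0.597 in WT. In the NKX2-2 experiment it was 0.412, 0.441 and 0.404 in KO, against 0.315, 0.407 and 0.344 in WT. ERO1A thus had the higher TPM of both oxidases in CLEC16A KO libraries and the lower in the other groups.

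P4HB, protein disulfide isomerase itself and a subunit of collagen prolyl hydroxylase, fell and rose with ERO1A. It held 910.6, 853 and 818.3 CPM in NKX2-2 KO, against 1162, 1176 and 1187 CPM in WT (log2 fold change -0.45, SE 0.10, edgeR adjusted p = 0.00499). In CLEC16A KO it held 1480, 1460 and 1658 CPM, against 874.6, 940.2 and 890.5 CPM in WT, a 1.70-fold rise (log2 fold change 0.77, SE 0.07, edgeR adjusted p = 1.59e-09). By TPM it was the most abundant member in CLEC16A KO (mean 1780 TPM) and in its WT (mean 1160 TPM). The other isomerases PDIA3, PDIA4 and PDIA6 rose in CLEC16A KO, with log2 fold changes of 0.41, 0.36 and 0.40 (edgeR adjusted p = 1.44e-05, 2.04e-05 and 1.77e-05). In NKX2-2 KO they had log2 fold changes of -0.02, -0.15 and 0.10 and were not called. By largest single overlap, an antisense gene covers 14.8% of the PDIA3 exon bases and 25.2% of those of PDIA6. Of the 6 genes of disulfide bond formation, 5 rose and 1 fell in CLEC16A KO, while 3 fell and 3 were not called in NKX2-2 KO.

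**Figure D2:**
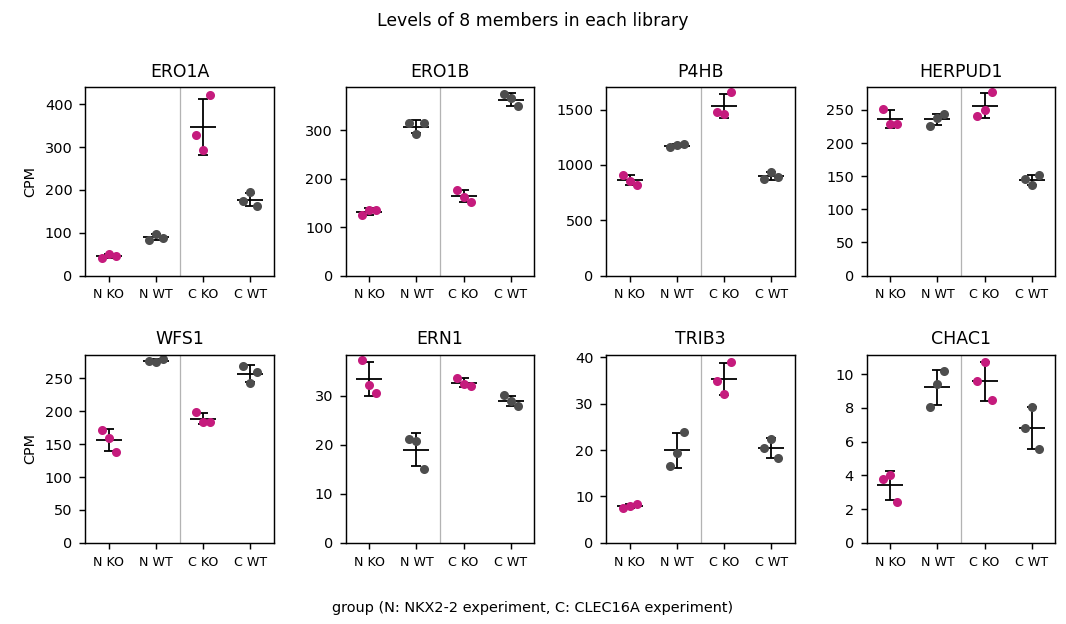
CPM of 8 members in each library (points) with group means and SD (black bars, n = 3), for the NKX2-2 experiment (N) on the left and the CLEC16A experiment (C) on the right of each panel, KO in pink left of WT in grey. ERO1B and WFS1 lie lower in KO in both experiments, ERO1A, P4HB, TRIB3 and CHAC1 lower in NKX2-2 KO and higher in CLEC16A KO, HERPUD1 higher in CLEC16A KO and ERN1 higher in NKX2-2 KO.

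The degradation machinery rose in CLEC16A KO, with 7 of 9 members higher, 0 lower and 2 not called, and a median log2 fold change of 0.46. In NKX2-2 KO, 0 of 8 tested members rose, 1 fell and 7 were not called, with a median of -0.01. HERPUD1 (chromosome 16, 56932048 to 56944863, plus strand), which organises the ubiquitin ligase complex that retrotranslocates misfolded proteins, held 240.7, 250.1 and 277 CPM in CLEC16A KO, against 146.5, 136.4 and 151.2 CPM in WT. The groups stood far apart, a 1.77-fold rise (log2 fold change 0.82, SE 0.07, edgeR adjusted p = 9.51e-10). In NKX2-2 KO it held 251.5, 228.3 and 229.2 CPM, against 226.2, 237.6 and 243.3 CPM in WT, with an overlap and a log2 fold change of 0.00 (SE 0.10, edgeR adjusted p = 0.979). The effects differed by -0.81 (SE 0.12, edgeR interaction adjusted p = 9.99e-06).

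SEL1L and SYVN1, the scaffold and the ubiquitin ligase at the centre of that complex, had log2 fold changes of 0.47 and 0.46 in CLEC16A KO (edgeR adjusted p = 1.61e-05 and 4.09e-06). SYVN1 held 56.77, 46.12 and 35.95 CPM in NKX2-2 KO, against 62.57, 72.64 and 52.89 CPM in WT. Those groups overlapped, and the difference lay just outside the threshold (log2 fold change -0.44, SE 0.16, edgeR adjusted p = 0.0534). It was called in 8 of 18 alternatives, with adjusted p values between 2.08e-04 and 0.309. EDEM1, a mannosidase-like protein that hands glycoproteins to degradation, fell in NKX2-2 KO and rose in CLEC16A KO. It held 37.26, 34.12 and 27.12 CPM in NKX2-2 KO, against 48.01, 48.48 and 41.03 CPM in WT (log2 fold change -0.48, SE 0.13, edgeR adjusted p = 0.0142). The CLEC16A KO libraries held 89.17, 87.2 and 105 CPM, against 58.79, 61.04 and 57.57 CPM in WT (log2 fold change 0.67, SE 0.08, edgeR adjusted p = 1.57e-07). No overlap occurred in either experiment, but the call in NKX2-2 KO was lost in edgeR fits without WT replicate 1, at an adjusted p of 0.0505, or WT replicate 2 (adjusted p = 0.0574). It was lost too on the log2(TPM + 1) scale of limma (adjusted p = 0.0592), over a range from 5.84e-05 to 0.175.

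EDEM3 and DERL1, a channel component of retrotranslocation, rose in CLEC16A KO with log2 fold changes of 0.48 and 0.46 (edgeR adjusted p = 4.36e-06 and 7.98e-06). EDEM2, the mannosidase that starts glycan trimming for degradation, had the smallest called rise, 0.25 (edgeR adjusted p = 0.0237). That call was lost in 10 of 18 alternatives, among them the edgeR fits without KO replicate 1 (adjusted p = 0.0898), KO replicate 3, at an adjusted p of 0.0559, or WT replicate 1 (adjusted p = 0.141) and limma on log2(TPM + 1) (adjusted p = 0.317), over a range from 0.0148 to 0.345. DERL2 was called in neither experiment. In NKX2-2 KO its log2 fold change was 0.33 (SE 0.13, edgeR adjusted p = 0.0684), and the groups overlapped. That rise was called in 4 of 18 alternatives, with adjusted p values between 0.00446 and 0.269. DERL3, a derlin of secretory tissues, was listed at 0 counts in all NKX2-2 libraries and held 0.323, 0.217 and 0.931 CPM in CLEC16A KO, against 0.66, 0.362 and 0.334 CPM in WT. SMARCB1 on the opposite strand covers 77.0% of the DERL3 exon bases, so its few counts are uncertain.

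In the ATF4 branch, 6 of 7 members rose and 0 fell in CLEC16A KO, while 0 rose and 3 fell in NKX2-2 KO. The median log2 fold change was 0.49 in CLEC16A KO and -0.29 in NKX2-2 KO. TRIB3 (chromosome 20, 362835 to 397559, plus strand), a pseudokinase induced by ATF4 and DDIT3, held 7.46, 8 and 8.37 CPM in NKX2-2 KO, against 16.53, 19.31 and 23.87 CPM in WT, a 2.5-fold fall (log2 fold change -1.32, SE 0.16, edgeR adjusted p = 2.52e-05). Its levels were 34.87, 32.05 and 38.97 CPM in CLEC16A KO, against 20.48, 22.48 and 18.22 CPM in WT, a 1.73-fold rise (log2 fold change 0.79, SE 0.10, edgeR adjusted p = 6.70e-07). KO lay wholly below WT in the NKX2-2 experiment and wholly above it in the CLEC16A experiment. Among members, the difference between both effects was largest here, at -2.10 (SE 0.19, edgeR interaction adjusted p = 8.33e-09).

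CHAC1 (chromosome 15, 40952962 to 40956519, plus strand), which degrades glutathione and is induced by ATF4, held 3.79, 4 and 2.42 CPM in NKX2-2 KO, against 8.07, 9.4 and 10.16 CPM in WT, a 2.69-fold fall (log2 fold change -1.43, SE 0.21, edgeR adjusted p = 1.38e-04). In CLEC16A KO it held 9.57, 10.74 and 8.44 CPM, against 6.83, 8.06 and 5.59 CPM in WT (log2 fold change 0.49, SE 0.16, edgeR adjusted p = 0.0148). These are low levels, and the rise in CLEC16A KO was lost in edgeR fits without KO replicate 2, at an adjusted p of 0.0794, or WT replicate 3 (adjusted p = 0.1). It was lost too on the log2(TPM + 1) scale of limma (adjusted p = 0.11), over a range from 0.00567 to 0.227. SESN2, a stress-inducible inhibitor of the growth kinase mTORC1, held 47.68, 48.47 and 39.75 CPM in NKX2-2 KO, against 62.91, 67.13 and 63.44 CPM in WT (log2 fold change -0.51, SE 0.11, edgeR adjusted p = 0.00339). The CLEC16A KO libraries held 78.02, 71.14 and 76.94 CPM, against 59.45, 48.61 and 59.61 CPM in WT (log2 fold change 0.43, SE 0.08, edgeR adjusted p = 1.20e-04). Both experiments showed no overlap, in opposite directions.

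The branch's transcription factors were not called in NKX2-2 KO, where TRIB3, CHAC1 and SESN2 fell. ATF4 held 267.5, 268.8 and 302.3 CPM in NKX2-2 KO, against 254.8, 252.3 and 302.2 CPM in WT. Its levels were 358, 343.1 and 373.6 CPM in CLEC16A KO, against 244.4, 246.6 and 258.4 CPM in WT, a 1.43-fold rise in counts (log2 fold change 0.52, SE 0.06, edgeR adjusted p = 2.98e-07). The groups overlapped in the NKX2-2 experiment and stood apart in counts, but not in TPM, in the CLEC16A experiment. ATF4 protein is set mainly by translation, which these data do not measure. DDIT3, the gene of the proapoptotic factor CHOP, held 10.92, 11.71 and 16.18 CPM in CLEC16A KO, against 6.54, 8.6 and 7.65 CPM in WT, a 1.70-fold rise (log2 fold change 0.77, SE 0.16, edgeR adjusted p = 3.34e-04). In NKX2-2 KO it held 13.6, 12.96 and 18.46 CPM, against 13.89, 11.42 and 16.31 CPM in WT, with an overlap (log2 fold change 0.11, SE 0.17). The difference of its effects, -0.65, was near the threshold (edgeR interaction adjusted p = 0.0442), lost in 8 of 17 alternatives with an adjusted p of up to 0.152. The antisense gene with the largest overlap covers 27.2% of the DDIT3 exon bases. PPP1R15A, which recruits the phosphatase that ends eIF2 phosphorylation, rose in CLEC16A KO (log2 fold change 0.45, edgeR adjusted p = 8.68e-05) and had a log2 fold change of -0.12 in NKX2-2 KO (edgeR adjusted p = 0.377). ASNS, asparagine synthetase, was called in neither experiment, but its counts are uncertain. It held 10 to 15 counts per library in NKX2-2 KO, against 15 to 18 in WT, at mean levels of 8.97 TPM and 11.9 TPM, and a same-strand gene, AC079781.5, covers 44.6% of its exon bases.

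Set side by side, 12 of 17 folding genes (chaperones and disulfide enzymes together) rose and 2 fell in CLEC16A KO. There, 7 of 9 degradation genes rose and 0 fell, and 6 of 7 genes of the ATF4 branch rose and 0 fell. In NKX2-2 KO, 1 of 17 folding genes rose and 4 fell, 0 of 8 degradation genes rose and 1 fell, and 0 of 7 ATF4 branch genes rose and 3 fell. Over all tested genes, 23.7% were higher and 21.3% lower in CLEC16A KO, and 16.6% were higher and 16.8% lower in NKX2-2 KO. In the test of the difference (NKX2-2 effect minus CLEC16A effect), 2 of 37 members were higher, 21 lower and 14 not called, where 17.8% of 20494 tested genes were higher and 20.4% lower. The median difference was -0.42 over the set and 0.04 over all tested genes. By branch, the difference was lower for 8 of 17 folding genes (median -0.30), 5 of 8 degradation genes (median -0.54) and 6 of 7 ATF4 branch genes (median -0.65). No test compared the branches with each other. By gene, 7 members fell in NKX2-2 KO and rose in CLEC16A KO: TRIB3, CHAC1 and SESN2 of the ATF4 branch, ERO1A and P4HB of disulfide bond formation, HYOU1 and EDEM1. ERO1B and WFS1 fell in both, 19 members rose in CLEC16A KO without a call in NKX2-2 KO, and 7 tested in both were called in neither.

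**Figure D3:**
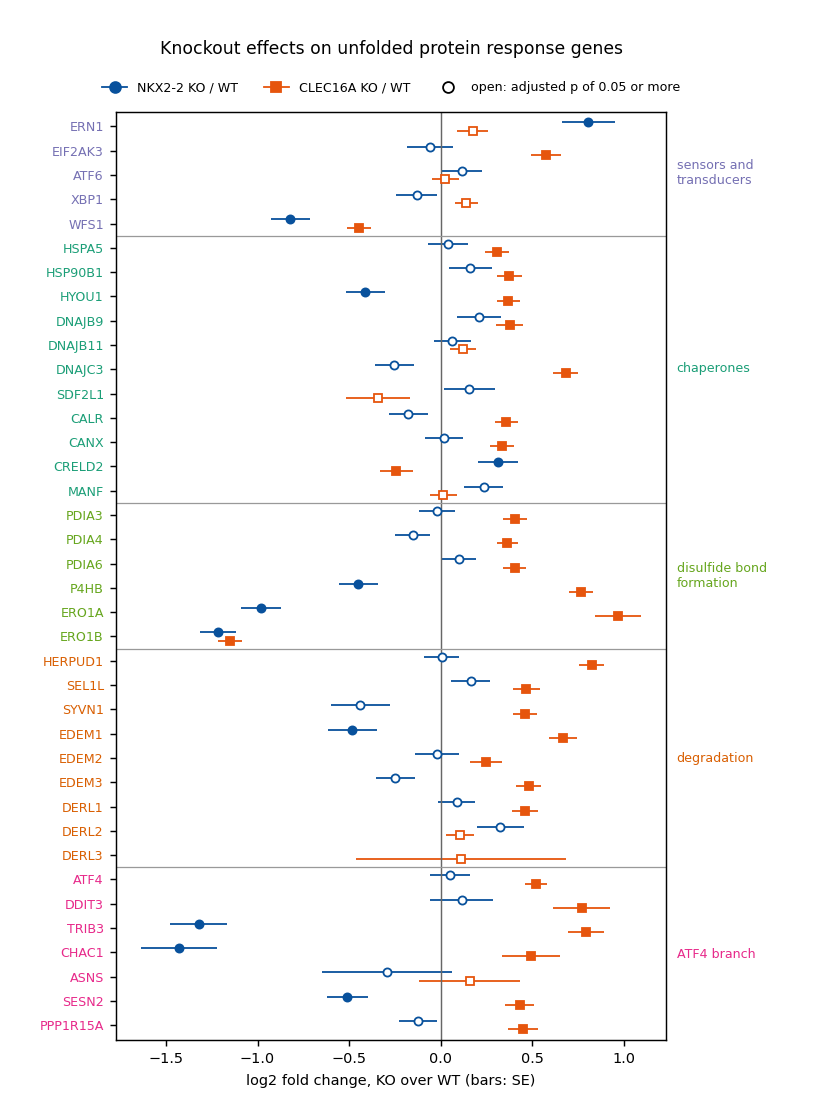
Log2 fold changes of the 38 genes, KO over WT, with SE bars, for the NKX2-2 experiment (blue circles) and the CLEC16A experiment (orange squares), filled where the edgeR adjusted p is under 0.05. The orange points of the folding, degradation and ATF4 groups lie right of 0 outside ERO1B, CRELD2 and SDF2L1, and the blue points spread from -1.43 for CHAC1 to 0.81 for ERN1.

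Levels between members, compared in mean TPM within a group, covered a wide range. CALR led in NKX2-2 KO (478 TPM) and its WT (536 TPM), and CHAC1 was the lowest member above DERL3 in NKX2-2 KO (1.64 TPM), against 4.6 TPM in its WT. Among the sensors, ERN1 averaged 6.38 TPM in NKX2-2 KO and 3.09 TPM in its WT, beside 6.96 TPM in KO and 7.05 TPM in WT for EIF2AK3 and 6.94 TPM in KO and 6.37 TPM in WT for ATF6. WFS1 averaged 115 TPM in CLEC16A KO and 168 TPM in its WT, beside 510 TPM in KO and 449 TPM in WT for HSPA5. TPM were not compared between the experiments, since the listed genes held 41.5% to 47.2% of the full TPM total in NKX2-2 libraries and 99.7% to 99.8% in CLEC16A libraries.

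Other genes of the pathway were sorted by role, in lists chosen with earlier results of these data known. They are described by their counts and the 3 members with the smallest p per comparison. Each count stands beside the shares over all tested genes, 16.6% higher and 16.8% lower in NKX2-2 KO and 23.7% and 21.3% in CLEC16A KO. Of 16 tested stress regulators of the ATF4 branch, 4 rose and 8 fell in NKX2-2 KO, and 10 rose and 2 fell in CLEC16A KO. GDF15, a stress hormone, held 437, 408.2 and 504.1 CPM in CLEC16A KO, against 125, 137.5 and 113.8 CPM in WT (log2 fold change 1.84, SE 0.08, edgeR adjusted p = 2.24e-13). In NKX2-2 KO it held 89.75, 84.04 and 86.6 CPM, against 152.9, 191.6 and 189.1 CPM in WT (log2 fold change -1.04, SE 0.11, edgeR adjusted p = 1.04e-05). The GDF15 groups stood apart in both experiments, in opposite directions. DDIT4, an inhibitor of mTORC1, fell in NKX2-2 KO (log2 fold change -1.18, edgeR adjusted p = 3.16e-05), while TRIB2, a paralog of TRIB3, rose there (1.29, edgeR adjusted p = 2.57e-06). ATF3, a stress-induced transcription factor, and the death receptor gene TNFRSF10B rose in CLEC16A KO, with log2 fold changes of 1.60 and 0.81 (edgeR adjusted p = 3.85e-10 and 4.20e-10). Of 19 amino acid synthesis and transport genes known as ATF4 targets, 2 rose and 7 fell in NKX2-2 KO, and 9 rose and 2 fell in CLEC16A KO. SLC7A5, a carrier of large neutral amino acids, fell in both, with log2 fold changes of -1.62 in NKX2-2 KO and -0.58 in CLEC16A KO (edgeR adjusted p = 7.98e-07 and 4.58e-08). SLC7A1, a carrier of basic amino acids, fell in NKX2-2 KO (-1.63) and the glutamine carrier SLC38A2 rose there (0.65). The proline synthesis gene ALDH18A1 and the carrier gene SLC1A5 rose in CLEC16A KO, by 0.94 and 0.88 on the log2 scale. Of 13 tRNA synthetase and export genes, 0 rose and 4 fell in NKX2-2 KO, led by YARS1 (-0.47), AARS1 (-0.34) and GARS1 (-0.32). In CLEC16A KO, 6 rose and 0 fell, led by XPOT (0.28), GARS1 (0.29) and WARS1 (0.25).

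On the side of folding and degradation, 12 of 26 other degradation genes rose and 2 fell in CLEC16A KO, where 0 of 25 rose and 1 (NPLOC4, -0.42) fell in NKX2-2 KO. SELENOS, a selenoprotein of the retrotranslocation complex, had the smallest p in CLEC16A KO (log2 fold change 0.81, edgeR adjusted p = 3.29e-09), followed by SVIP, an inhibitor of this degradation, which fell (-0.77), and FAM8A1, a partner of SYVN1, which rose (0.42). UBE2J2 and FAM8A1 had log2 fold changes of -0.26 and -0.25 in NKX2-2 KO and did not pass the test there. Of 32 other folding enzymes, 6 rose and 3 fell in NKX2-2 KO, and 11 rose and 6 fell in CLEC16A KO, nearer to the shares over all genes. Their leading members were FKBP7 (0.89), MOGS (-0.62) and FKBP10 (0.61), a collagen chaperone, in NKX2-2 KO. In CLEC16A KO they were FKBP11 (2.32), an isomerase of secretory cells, PDIA5 (0.63) and ERP44 (0.55). FKBP11 held 46.38, 51.08 and 47.25 CPM in CLEC16A KO, against 9.06, 11.44 and 8.5 CPM in WT. Its mean was 108.1 TPM in KO and 7.22 TPM in WT. By limma on log2(TPM + 1) its log2 fold change was 3.74, so the size of the rise is uncertain. Any link of FKBP10 to the mesenchyme markers, or of FKBP11 to the intestine and goblet markers, was not tested. Of 33 genes of translocation, signal cleavage and glycosylation, 4 rose and 1 fell in NKX2-2 KO, with SRPRA (-0.56), SEC11C (0.71) and SSR4 (0.59) in the lead. In CLEC16A KO, 14 rose and 6 fell, with TMED2 (0.59), RPN2 (0.53) and SSR3 (0.46) in the lead.

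Among regulators, 9 of 15 other ER stress transducers rose and 1 fell in CLEC16A KO, against 1 higher and 2 lower of 14 in NKX2-2 KO. CREB3L3, an ER-bound transcription factor of liver and gut, held 221, 262.3 and 282.8 CPM in CLEC16A KO, against 64.1, 58.03 and 66.23 CPM in WT (log2 fold change 2.02, SE 0.08, edgeR adjusted p = 3.78e-14). In NKX2-2 KO it held 54.36, 46.62 and 42.87 CPM, against 112.8, 128.1 and 117 CPM in WT (log2 fold change -1.32, SE 0.11, edgeR adjusted p = 1.91e-06). ERN2, the IRE1 paralog of gut and goblet cells, held 8.47, 7.45 and 7.58 CPM in CLEC16A KO, against 1.86, 1.99 and 2.06 CPM in WT (log2 fold change 1.99, edgeR adjusted p = 4.37e-09). Markers of gut and liver rose in CLEC16A KO too, and any link to the rise of CREB3L3 and ERN2 was not tested. In NKX2-2 KO, ERN2 held 5.78, 5.15 and 5.02 CPM, against 4.23, 3.79 and 3.67 CPM in WT. KO lay wholly above WT without a call (log2 fold change 0.45, edgeR adjusted p = 0.073), while the intestine and goblet sum was lower in KO there. TMBIM6, an ER membrane protein that restrains IRE1, had a log2 fold change of 0.54 in CLEC16A KO (edgeR adjusted p = 1.41e-07), and in NKX2-2 KO CREB3L4 had 0.56 and the ATF6 protease gene MBTPS1 -0.30. Of 13 genes of eIF2 and its other kinases, 1 rose and 3 fell in NKX2-2 KO, namely EIF2AK2 (-1.27), the kinase that senses double-stranded RNA, EIF2B5 (-0.36) and PPP1R15B (-0.44). In CLEC16A KO, 5 rose and 4 fell, and EIF2S3 (0.44), EIF2A (0.52) and EIF2S2 (0.43) had the smallest p.

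**Figure D4:**
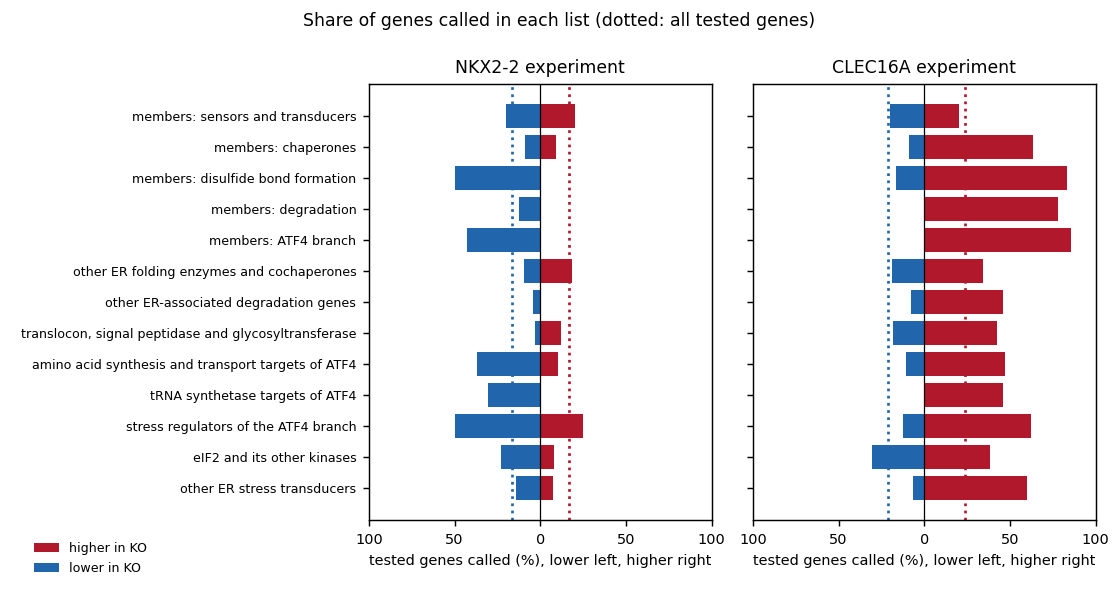
Share of the tested genes of each list called higher (red, to the right) or lower (blue, to the left) in KO, for the NKX2-2 experiment on the left and the CLEC16A experiment on the right, with dotted lines at the shares over all tested genes (16.6% higher and 16.8% lower in NKX2-2 KO, 23.7% and 21.3% in CLEC16A KO). In CLEC16A KO the red bars of the 4 member groups outside the sensors and of all related lists pass the dotted line. The blue bar of the eIF2 list passes it there too. In NKX2-2 KO the blue bars of the sensors, disulfide bond formation, the ATF4 branch, its 3 related lists and the eIF2 list do.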

How the data were processed

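Raw counts and TPM (length-scaled abundances), each as a table per experiment, are the values the authors deposited. The submitters' processing notes name StringTie 2.1.7, HISAT2 2.2.1, fastp 0.22.0 and hg38, without their roles. What program counted reads, on which annotation and whether by strand, is not given in the sources used here. The 45 rows for pseudoautosomal genes on Y were removed, genes of mitochondrial DNA have 0 counts throughout the CLEC16A tables, and 0 of the 24 value columns belonged to no sample.

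Groups and replicate numbers came from the sample titles. In R 4.3.3, edgeR 4.0.16 was run on the deposited counts of each experiment by itself, with TMM scaling, filterByExpr and the robust quasi-likelihood F test. P-values were adjusted by Benjamini-Hochberg over all genes tested, at a threshold of 0.05. The difference between both knockout effects was an interaction in a single fit of the 12 libraries. SE was taken as the size of the log2 fold change divided by the root of F. Tested on simulated counts with 200 changed genes per experiment, 7.08% of calls were false over 16840 genes simulated for the NKX2-2 comparison and 3.85% over 19331 for CLEC16A. Far more genes were called in the data (5824 for NKX2-2 and 8985 for CLEC16A), so these shares need not carry over to them. Alternatives were RLE and upper-quartile scaling, DESeq2 1.42.0, no filter, a minimum of 10 counts in 3 libraries, a replicate block, a single fit for both experiments, limma 3.58.1 on log2(TPM + 1) and log2(TPM + 0.1) where the mean TPM was 1 or more, log2(TPM + 1) also without that filter, and leaving out each library. Fits without both libraries numbered 3 and on TPM rescaled to a common total were added after seeing the data. No pair of replicates agreed within sampling noise.

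The members and gene lists were chosen with earlier results of these data known, so no p is given for a list. Genes named by rule are the members, NKX2-2, CLEC16A, INS, GCG and, of each related list, the 3 with the smallest p per comparison. Of the marker lists, CHGA, NEUROD1, SST, ISL1, CELA3A, PRSS1 and PNLIP are named too, outside that rule. Gene coordinates are from GENCODE (GRCh38), and promoter windows from RefSeq.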

Additional observations from a re-analysis of the deposited data

Results flagged for a closer look

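The effects of both knockouts differed by the edgeR interaction test in 23 of 37 tested members. Values are the NKX2-2 effect minus the CLEC16A effect on the log2 scale. In the ATF4 branch the differences were -2.10 for TRIB3, -1.91 for CHAC1, -0.93 for SESN2, -0.65 for DDIT3, -0.56 for PPP1R15A and -0.46 for ATF4. In disulfide bond formation they were -1.94 for ERO1A, -1.21 for P4HB, -0.51 for PDIA4, -0.42 for PDIA3 and -0.30 for PDIA6. The call of PDIA6 was lost in 12 of 17 alternatives, 9 of them with 1 library left out (adjusted p up to 0.248), and that of DDIT3 in 8 of 17, 7 of them with 1 library left out (adjusted p up to 0.152). Among the degradation genes they were -1.14 for EDEM1, -0.89 for SYVN1, -0.81 for HERPUD1, -0.72 for EDEM3 and -0.37 for DERL1. For the chaperones DNAJC3, HYOU1 and CALR they were -0.93, -0.77 and -0.53. EIF2AK3 and WFS1 had -0.62 and -0.37. The effect was higher in NKX2-2 KO for ERN1 (0.64) and CRELD2 (0.56). WFS1 fell in both experiments, and EIF2AK3, ERN1 and 12 others of these 23 genes were called in 1 experiment. Over all genes, 38.2% were called in this test, and the experiments differ in depth and in what their tables hold, whose part in these differences was not tested.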

How the results depend on the processing

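No call of a member changed direction under any alternative run. Of 11 calls in NKX2-2 KO, 7 held in all 18 alternatives, of 29 in CLEC16A KO 16 did, and of 23 of the difference 18 held in all 17. Members called higher in NKX2-2 KO (2) numbered 1 with RLE scaling, DESeq2, no filter on low counts, unfiltered limma on log2(TPM + 1) and limma on rescaled TPM, 4 in the single fit of all libraries and 1 to 2 with a library left out. Those called lower (9) then numbered 8 to 11. In CLEC16A KO, 14 members instead of 26 were higher with unfiltered limma on log2(TPM + 1), and 25 to 27 with a library left out.

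Over all genes, 1790 were higher and 1757 lower in NKX2-2 KO with unfiltered limma on log2(TPM + 1), and 1674 higher and 2609 lower on rescaled TPM. In CLEC16A KO, 2988 were higher and 4612 lower with limma on log2(TPM + 1), and 2937 higher with log2(TPM + 0.1), 2813 with unfiltered log2(TPM + 1) and 2987 on rescaled TPM. Upper-quartile scaling gave 4034 higher and 5294 lower there, and 4703 higher and 3517 lower for the difference.

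Values that changed sign belonged to uncalled members. In NKX2-2 KO they were HERPUD1 (-0.026 with DESeq2, -0.0144 with RLE, -0.157 and -0.155 with limma on log2(TPM + 0.1) and log2(TPM + 1), -0.2405 on rescaled TPM, -0.0377 with no filter), CANX (-0.0117, -0.0004 with DESeq2 and RLE, -0.0587 on rescaled TPM, -0.0218 with no filter), HSPA5 (-0.0372 on rescaled TPM, -0.0007 with no filter) and DERL1 (-0.0353 on rescaled TPM). With upper-quartile scaling EIF2AK3 had 0.0053, EDEM2 0.0373 and PDIA3 0.0403, and without both libraries numbered 3 DNAJB11 had -0.0209, EDEM2 0.0779 and CANX -0.0304. In CLEC16A KO, limma on log2(TPM + 1), log2(TPM + 0.1) and rescaled TPM gave ATF6 -0.0894, -0.0951 and -0.0903, ERN1 -0.0793, -0.0862 and -0.0801, DERL2 -0.0553, -0.0566 and -0.0562, and MANF -0.104, -0.105 and -0.105. Upper-quartile scaling gave ATF6 -0.0487 and MANF -0.0592, and, of the difference, DNAJB11 0.0722 and ERO1B 0.0608. Without both libraries numbered 3, ASNS had -0.117 and DERL3 -0.916.

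With a library left out, signs turned in NKX2-2 KO for ATF4 (-0.0138 to 0.139), CANX (-0.0158 to 0.0526), CLEC16A (-0.0691 to 0.139), DDIT3 (-0.0618 to 0.241), DNAJB11 (-0.0049 to 0.117), EDEM2 (-0.0963 to 0.0892), EIF2AK3 (-0.155 to 0.0061), HERPUD1 (-0.0606 to 0.0275), HSPA5 (-0.0078 to 0.0882) and PDIA3 (-0.0515 to 0.0188). They turned in CLEC16A KO for ASNS (-0.0553 to 0.321), ATF6 (-0.0279 to 0.0571), DERL3 (-0.739 to 0.482) and MANF (-0.0483 to 0.0682), and for the difference in DNAJB11 (-0.1084 to 0.0039). The cause of these changes was not tested.

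Same-numbered KO and WT libraries did not deviate together in every pair (correlations 0.18, 0.0617 and 0.465 in the NKX2-2 experiment and 0.00924, 0.0066 and -0.0464 in the CLEC16A experiment), so the numbers were not taken as pairs. In the NKX2-2 experiment, KO replicate 3 correlated at -0.302 and -0.299 with WT replicates 1 and 2. WT replicate 3 correlated at -0.34 and -0.184 with KO replicates 1 and 2. Both libraries numbered 3 thus deviated alike, for a reason that was not tested. With a replicate block, 5 members instead of 2 were higher and 13 instead of 9 lower in NKX2-2 KO. Over all genes, 4077 were higher and 3960 lower there, and DERL3 had a log2 fold change of -0.0341 in CLEC16A KO. Not every library correlated best with its own number.

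Limits are few libraries per group, counts that cannot be assigned to strand or clone, and no measure of splicing, phosphorylation or protein. Counts are uncertain for ASNS, DERL3 and INS and for the markers CHGA, CELA3A and PRSS1. The size of the FKBP11 rise in CLEC16A KO is uncertain too.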
